A study of Mus musculus with 6 samples.

Results

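The genes described here encode the machinery of the lysosome, namely the subunits of its proton pump, its membrane proteins, its acid hydrolases with their lipid-binding helpers, and the transcription factors Tfeb and Mitf. The members were a list of 48 gene symbols, matched to the gene symbol column of the deposited intensity table with older synonyms allowed. All 48 had a probe, 47 under their current symbol and Tfeb under its older name Tcfeb, among 35022 features in all, 25716 of them with a symbol. The members came to 60 probes, and 10 members had more than 1. Of the 48 members, 33 had a level of at least 0.5, where the level is the mean brightness of a probe in the arbitrary units of the table, and 15 were dimmer.

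Transcripts of 6 mouse aortas were profiled on Agilent arrays with 2 colours, 3 from ApoE KO mice and 3 from C57BL6 mice, called WT here. ApoE KO mice lack apolipoprotein E and, per the labels, had atherosclerotic lesions, which the C57BL6 mice did not show. Both groups carry the label high fat diet, given for 16 weeks from an age of 8 weeks per the protocol, and a genetic background labelled C57BL6 db/+. The labels give an age of 32 weeks for the ApoE KO mice and 24 weeks for the C57BL6 mice, and 16 weeks from an age of 8 weeks would give 24 weeks, so the length of the diet in the ApoE KO mice is not settled. Genotype, age and any difference in diet length or vehicle cannot be told apart. Each aorta's RNA was labelled with Cy5 and compared with a common Cy3 reference made from C57BL6 controls on the same diet. Replicates are named biological replicates, and the sources used here do not say whether aortas were pooled. Fold changes compare ApoE KO with WT in log2 units of the ratio to that reference, ApoE KO on top, and carry the standard error (SE) of the fit with n = 3 per group.

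Lysosomes degrade material taken up by endocytosis, phagocytosis and autophagy. The V-type ATPase acidifies them: its cytosolic V1 sector splits ATP and turns a rotor, which drives protons through the membrane sector V0. In an atherosclerotic aorta, macrophages take up modified lipoproteins and hydrolyse their cholesteryl esters in lysosomes, and foam cells form where this load exceeds what the cells can export. TFEB, MITF and their relatives are known to bind an E-box called the CLEAR element in the promoters of many lysosomal genes.

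Promoter windows of 250 bases before to 50 bases after the transcription start were matched by symbol for 40 of the 48 members (RefSeq, GRCm38.p6). The E-box CACGTG, which reads the same on both strands, occurred in the windows of 12 of these 40 genes (30.0%) and of 2187 of 27025 genes overall (8.09%). The longer forms GTCACGTG and TCACGTGA, both searched on both strands and both overlapping the first, occurred in 10 (25.0%) and 5 (12.5%) of the 40, against 2.55% and 1.12% of all genes. The motif was present in 5 of the 19 matched members that were called higher in the ApoE KO aortas and in 7 of the 21 that were not called. The stretches around the E-box of the 3 members with the highest fold change among those that hold it upstream of a start are printed here 5′ to 3′ on the gene's strand, with the E-box in capitals. They lie at chr12:102439096-102439181 on the minus strand (Lgmn, a gene with 2 windows), chr11:101069981-101070066 on the plus strand (Naglu) and chr9:114400990-114401075 on the plus strand (Glb1). The E-box ends 44, 68 and 43 bases before the start in the same order. In each of the 3 the letters before the E-box are gt, which completes GTCACGTG. A match of letters describes the sequence and does not show that a factor binds there.
Lgmn: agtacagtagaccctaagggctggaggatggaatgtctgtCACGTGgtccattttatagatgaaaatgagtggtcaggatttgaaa
Naglu: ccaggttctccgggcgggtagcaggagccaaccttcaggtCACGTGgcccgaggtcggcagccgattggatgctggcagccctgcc
Glb1: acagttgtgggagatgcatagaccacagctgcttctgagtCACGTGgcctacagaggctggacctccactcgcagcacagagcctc

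The comparison of ApoE KO with WT aortas asked which lysosomal transcripts differ between diseased and lesion-free vessels. Of the 48 members, 25 were higher in the ApoE KO aortas and 0 were lower at a Benjamini-Hochberg adjusted p under 0.05 in limma, while over all features 6.73% were called higher and 8.01% lower. At an unadjusted p under 0.05, 37 members were higher and 0 lower, against 10.5% and 16.3% of all features. The median log2 fold change was 0.31 over the members and -0.02 over all features. The 3 ApoE KO arrays had a member median log2 ratio of 0.33, 0.30 and 0.29, and the 3 WT arrays had 0.00, 0.00 and -0.01. All 3 ApoE KO values lay above all 3 WT values for 37 members, which held for 11.0% of all features, and below them for 0 members, which held for 18.4% of all features. Brightness per array is given here as the reference intensity, averaged over the 3 WT arrays, times the array's ratio, since no intensity of an ApoE KO array was used. Summed over the members, it came to 517, 516 and 484 for the ApoE KO arrays and to 350, 354 and 353 for the WT arrays, and over all features to 56900 to 57900 and 57900 to 58400. The member sum is weighted to bright probes. Lgmn, Acp5 and Hexa had the largest differences, at 3720, 2800 and 2740 intensity steps of 0.01. Because the tissue was measured in bulk, a change in the number of cells of a type and a change in the RNA per cell cannot be told apart.

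**Figure D1:**
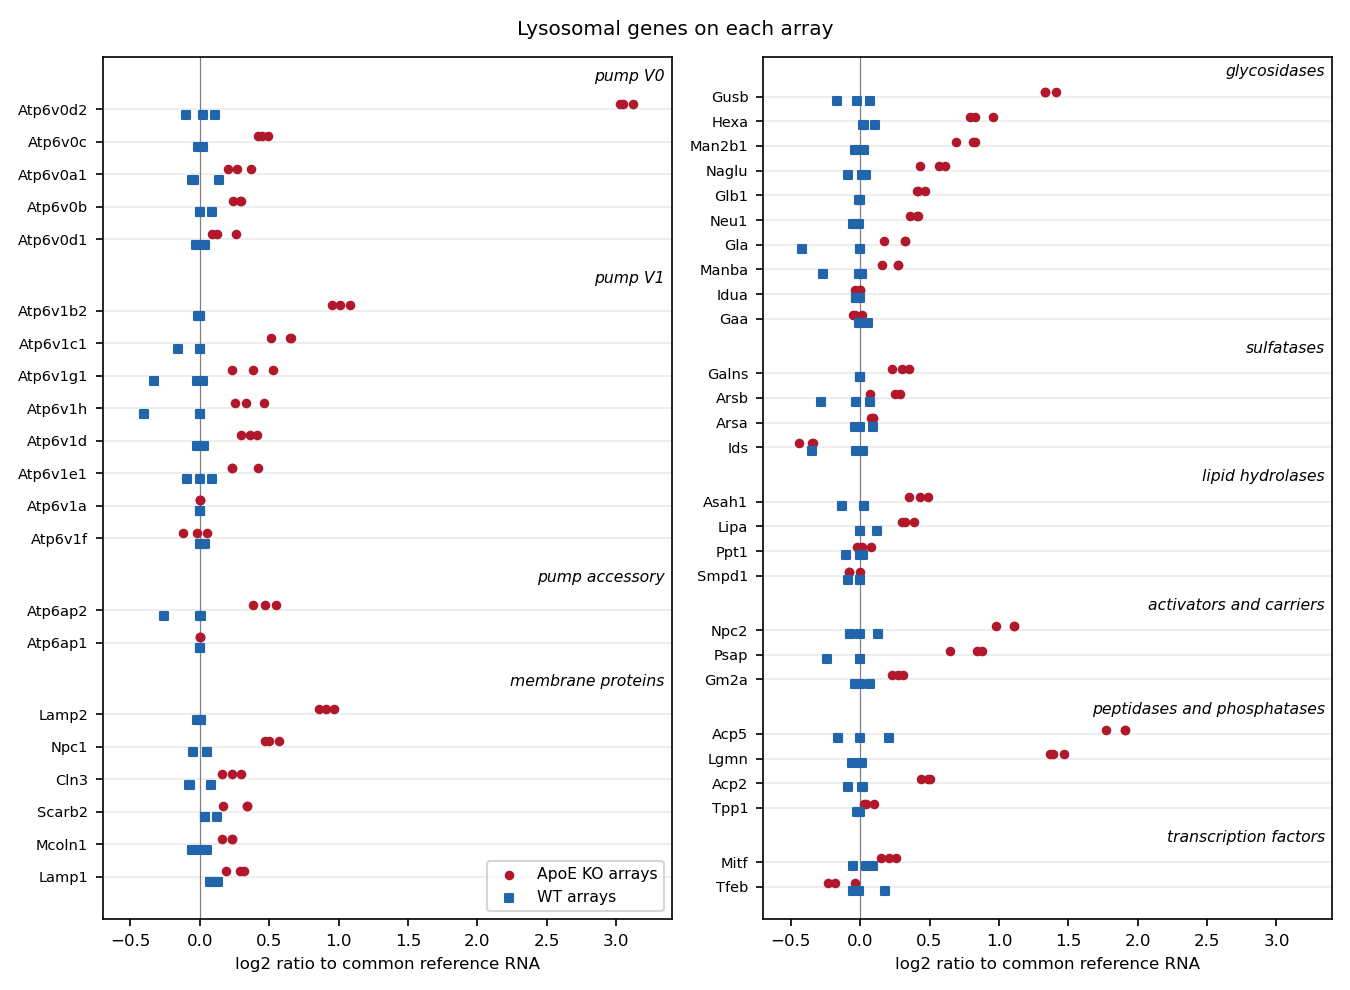
Log2 ratio to the common reference RNA (horizontal axis) of the 48 lysosomal genes on each of the 3 ApoE KO arrays (red circles) and 3 WT arrays (blue squares), sorted within each role. Red lies to the right of blue for 37 genes, and Atp6v0d2 at 3.03 to 3.12 and Acp5 at 1.77 to 1.91 stand farthest out.

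The size of the difference varied widely among the members. It was at least 0.5 on the log2 scale for 13 members, all of them called, whereas 2.89% of all features were called higher at that size. It was at least 1, a doubling, for 6: Atp6v0d2, Acp5, Lgmn, Gusb, Npc2 and Atp6v1b2. Called increases of at least a doubling made up 1.05% of all features. At the other end, Ids, Tfeb, Atp6v1f, Gaa and Smpd1 had negative log2 fold changes, from -0.26 to -0.02, and did not pass the test. Atp6v1a and Atp6ap1 had a ratio of exactly 0 on all 6 arrays, at levels of 0.05 and 0.157. Intensities were written in steps of 0.01, so that a dim probe can show no change where there was a small one.

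The pump was represented by 15 genes, of which 7 were called higher and 0 lower (12 higher and 0 lower at an unadjusted p under 0.05), with a median log2 fold change of 0.35, or 0.32 without Atp6v0d2. In the V0 sector, Atp6v0d2 encodes a form of the d subunit known from osteoclasts and macrophages, and Atp6v0d1 the form found in most cells. Atp6v0d2 had log2 ratios of 3.12, 3.05 and 3.03 in the 3 ApoE KO arrays, against 0.02, -0.10 and 0.11 in the 3 WT arrays, each in the order of replicates 1 to 3 that is kept throughout. This is 8.31-fold higher in the ApoE KO aortas (log2 fold change 3.06 ± 0.065 (SE), adjusted p = 0.000269), the 4th highest of all features. Atp6v0d1 had log2 ratios of 0.12, 0.26 and 0.09 in the ApoE KO arrays, against 0.00, -0.03 and 0.04 in the WT arrays, and its log2 fold change of 0.15 ± 0.052 did not pass the test (adjusted p = 0.151). The groups did not overlap for either gene. The log2 difference between both genes on the same array, Atp6v0d2 minus Atp6v0d1, was 2.91 ± 0.11 in ApoE KO and 0.00 ± 0.08 in WT arrays (SD, n = 3 each). A two-sided exact permutation test gave p = 0.1, the smallest that 3 against 3 arrays can give, and 0.1 after adjustment over the 2 pairs compared. Such tests of pairs were not among the planned tests, and other subunits with alternative forms were not compared. The test therefore adds no support to the difference.

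Of the other V0 genes, 2 of 3 were called. Atp6v0c, which encodes the main proteolipid of the proton-carrying ring, was higher by 0.45 ± 0.021 and Atp6v0b, a further ring proteolipid, by 0.25 ± 0.033. Atp6v0a1, the a subunit form found in many tissues, had a log2 fold change of 0.27 ± 0.073 and did not pass. The difference of Atp6v0b amounted to 6.08 rounding steps of intensity, and its call ended without ApoE KO replicate 1 (adjusted p = 0.0539).

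In the V1 sector, 3 of 8 genes were called higher. Atp6v1b2, the widely expressed B subunit that binds ATP, had log2 ratios of 1.08, 1.01 and 0.95 in the ApoE KO arrays and of -0.01, 0.00 and 0.00 in the WT arrays. Its probe was 2.02-fold higher (log2 fold change 1.02 ± 0.034, adjusted p = 0.00062), but another probe of the same gene was at -0.09 ± 0.088. Atp6v1c1, the C subunit of the stator, had 0.65, 0.51 and 0.66 in ApoE KO and 0.00, 0.00 and -0.16 in WT arrays, a log2 fold change of 0.66 ± 0.068 (adjusted p = 0.006) (probe level 0.217). Atp6v1d, a rotor subunit, rose by 0.35 ± 0.032, and both of its probes were called.

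The remaining V1 genes did not pass the test. Atp6v1e1 and Atp6v1g1, which form the peripheral stalks, had log2 fold changes of 0.30 and 0.49, and Atp6v1h, a regulatory subunit, had 0.48, all with groups that did not overlap. WT replicate 3 was the lowest array for each of these 3 genes, at -0.09, -0.33 and -0.40. Atp6v1f, a rotor subunit, had log2 ratios of -0.02, 0.05 and -0.12 in ApoE KO and of 0.00, 0.04 and 0.00 in WT arrays, so the groups overlapped. Atp6v1a, the catalytic subunit, was the dim probe without any variation described above.

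Of the accessory proteins, Atp6ap2, also called the prorenin receptor, had log2 ratios of 0.55, 0.38 and 0.47 in ApoE KO and of 0.01, 0.00 and -0.26 in WT arrays. Its groups did not overlap, and it was called higher by 0.55 ± 0.094 (adjusted p = 0.0256). Omitting any of 5 arrays singly ended the call, with an adjusted p of up to 0.0994, and omitting WT replicate 3 did not. Atp6ap1, an assembly factor of the pump, was at 0 on each of the 6 arrays, as given above.

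**Figure D2:**
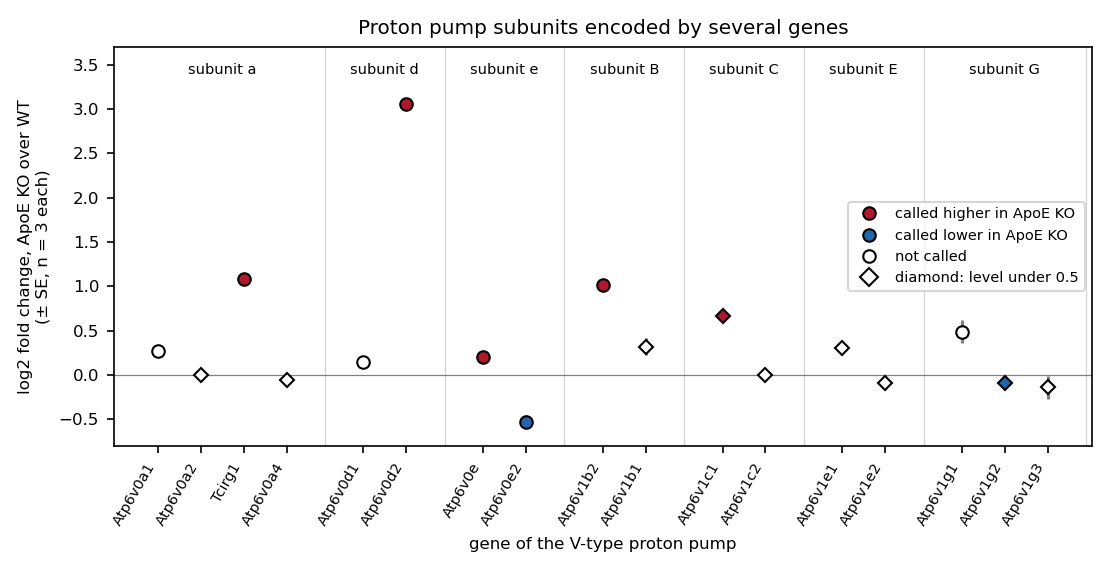
Log2 fold change, ApoE KO over WT, with its SE (n = 3 each) for genes that encode alternative forms of the same pump subunit, grouped by subunit. Filled red points were called higher, filled blue points lower, open points were not called, and diamonds mark levels under 0.5. Atp6v0d2 at 3.06 and Tcirg1 at 1.08 stand above the other genes of their subunits.

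Alternative forms of the pump subunits that are not members were set beside them. Of these 10 genes, 2 were called higher and 2 lower. Tcirg1, the a3 subunit known from osteoclasts and macrophages, rose by 1.08 ± 0.050 (adjusted p = 0.000873). The log2 difference Tcirg1 minus Atp6v0a1 was 0.79 ± 0.06 in ApoE KO and -0.02 ± 0.09 in WT arrays (SD, n = 3 each). The two-sided exact permutation test gave p = 0.1, again the smallest possible, with the same limits as for Atp6v0d2 and Atp6v0d1. Atp6v0e rose by 0.20 ± 0.036, a call that ended without any of 5 arrays (highest adjusted p 0.104). Atp6v0e2 fell, by a log2 fold change of -0.53 ± 0.073, a call that ended without any of 3 arrays (highest 0.0647), and Atp6v1g2 by -0.09 ± 0.005, which is less than 1 rounding step (probe level 0.144). The 6 others did not pass. They included Atp6v0a2 (0.00), Atp6v0a4 (-0.06) and Atp6v1c2 (0.00), whose levels were 0.0948 or lower. Atp6v1b1, at a level of 0.429, had a log2 fold change of 0.32 ± 0.097 with groups that did not overlap (adjusted p = 0.114). It was called without ApoE KO replicate 1 (adjusted p = 0.0329).

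All 6 lysosomal membrane proteins had non-overlapping groups, and 3 of them were called higher. Lamp2, a heavily glycosylated coat protein of the membrane that also serves in chaperone-mediated autophagy, had log2 ratios of 0.97, 0.86 and 0.91 in the ApoE KO arrays and of 0.01, -0.02 and 0.01 in the WT arrays. It was 1.89-fold higher (log2 fold change 0.91 ± 0.032, adjusted p = 0.000702). Npc1, which exports cholesterol from the lysosome, had 0.57, 0.50 and 0.47 in ApoE KO and 0.05, 0.05 and -0.05 in WT arrays, a log2 fold change of 0.50 ± 0.041 (adjusted p = 0.00328). Both genes thus had ApoE KO values well apart from the WT values. The Npc1 probe was dim (level 0.325), and its groups differed by 12.2 rounding steps. Mcoln1, a calcium channel of the lysosomal membrane, rose by 0.21 ± 0.038. Omitting any of 5 arrays singly ended its call (highest adjusted p 0.11), and its second probe, at a level of 0.05, was at 0 on all arrays.

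Lamp1, the companion of Lamp2 in the lysosomal coat and the brightest member, had log2 ratios of 0.32, 0.29 and 0.19 in ApoE KO and of 0.08, 0.13 and 0.07 in WT arrays. Its log2 fold change was 0.17 ± 0.040 with an adjusted p of 0.0593, and quantile normalization between arrays turned its sign (-0.003, not called). Scarb2, which carries glucocerebrosidase to the lysosome, was at 0.21 and Cln3, the protein affected in a childhood form of Batten disease, at 0.26. Neither passed the test over all features.

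Glycosidases remove sugars from glycolipids, glycoproteins and glycosaminoglycans. Of 10 members, 6 were called higher, 0 were called lower (8 and 0 at an unadjusted p under 0.05), and the median log2 fold change was 0.43. Gusb, the beta-glucuronidase, had log2 ratios of 1.41, 1.33 and 1.33 in ApoE KO and of 0.07, -0.02 and -0.17 in WT arrays, 2.63-fold higher (log2 fold change 1.39 ± 0.069, adjusted p = 0.00101). Hexa, the alpha subunit of beta-hexosaminidase, had 0.83, 0.96 and 0.79 in ApoE KO and 0.03, 0.02 and 0.11 in WT arrays (0.81 ± 0.055, adjusted p = 0.00197). For both genes the lowest ApoE KO array lay far above the highest WT array.

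Man2b1, a lysosomal alpha-mannosidase, had log2 ratios of 0.81, 0.83 and 0.69 in ApoE KO and of 0.03, -0.03 and -0.04 in WT arrays, which gave 0.79 ± 0.048 (adjusted p = 0.0015). Naglu, an enzyme of heparan sulfate breakdown, had 0.57, 0.61 and 0.43 in ApoE KO and -0.09, 0.01 and 0.04 in WT arrays (0.55 ± 0.065, adjusted p = 0.0085). The beta-galactosidase Glb1 and the sialidase Neu1 rose by 0.43 ± 0.018 and 0.42 ± 0.020. These 4 genes had groups that did not overlap.

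The other 4 glycosidases did not pass. Gla, the alpha-galactosidase, was at 0.41 with a WT replicate 3 value of -0.42, and its dim probe (level 0.0481) differed between groups by 1.36 rounding steps. Manba, the beta-mannosidase, was at 0.32 with -0.27 in WT replicate 3. Gaa, which degrades glycogen, had log2 ratios of -0.04, 0.01 and -0.05 in ApoE KO and of 0.00, -0.01 and 0.06 in WT arrays, so its groups overlapped. Idua, an enzyme of heparan and dermatan sulfate breakdown, was at 0.01.

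The 4 sulfatases had a median of 0.18. Galns, which acts on keratan sulfate, was called higher by 0.29 ± 0.033 (adjusted p = 0.00777), with WT ratios of exactly 0 on all 3 arrays. Its probe was dim (level 0.342), and the groups differed by 7.33 rounding steps. Arsa and Arsb, at 0.07 and 0.28, did not pass. Ids, the iduronate sulfatase, had log2 ratios of -0.35, -0.44 and -0.34 in ApoE KO and of -0.03, 0.02 and -0.35 in WT arrays, a log2 fold change of -0.26 ± 0.114 (adjusted p = 0.254). WT replicate 3 lay among the ApoE KO values, whereas WT replicates 1 and 2 lay above them. Without WT replicate 3, Ids was called lower by -0.37 with an adjusted p of 0.019, within a range of 0.019 to 0.62 over 15 alternative settings.

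Lipid hydrolases had a median of 0.17, and 2 of 4 were called higher. Asah1, the acid ceramidase, rose by 0.45 ± 0.064 (adjusted p = 0.0155). Lipa, the lysosomal acid lipase that releases cholesterol from lipoprotein esters, had log2 ratios of 0.30, 0.39 and 0.32 in ApoE KO and of 0.00, 0.00 and 0.12 in WT arrays (0.30 ± 0.044, adjusted p = 0.017). The groups did not overlap, yet the probe had a level of 0.122 and the groups differed by 2.67 rounding steps, so the size for Lipa is not resolved. Omitting any of 5 arrays singly ended the call of Lipa (highest adjusted p 0.0674), and omitting ApoE KO replicate 1 or 3 ended that of Asah1 (highest 0.0685). Smpd1, the acid sphingomyelinase, had -0.08, -0.08 and 0.00 in ApoE KO and 0.00, 0.00 and -0.09 in WT arrays, less than 1 rounding step apart. Ppt1, a thioesterase that removes fatty acids from proteins, was at 0.05.

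All 3 lipid-binding activators and carriers were called higher. Npc2, the soluble partner that hands cholesterol to Npc1, had log2 ratios of 1.11, 1.11 and 0.98 in ApoE KO and of -0.07, 0.00 and 0.13 in WT arrays, 2.06-fold higher (1.04 ± 0.069, adjusted p = 0.00185). Psap, the precursor of the saposins that present sphingolipids to their hydrolases, had 0.88, 0.84 and 0.65 in ApoE KO and 0.00, 0.00 and -0.24 in WT arrays (0.87 ± 0.101, adjusted p = 0.00828). The Psap probe was dim (level 0.164), and the groups differed by 11.0 rounding steps. Gm2a, the activator of ganglioside degradation, had 0.27, 0.31 and 0.23 in ApoE KO and -0.04, 0.00 and 0.07 in WT arrays (0.26 ± 0.038, adjusted p = 0.017). The groups of all 3 were apart, but omitting any of 4 arrays singly ended the call of Gm2a (highest adjusted p 0.0726). The Gm2a probe was dim as well (level 0.421), with groups 7.83 rounding steps apart.

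The peptidases and phosphatases included the highest hydrolases. Acp5, the tartrate-resistant acid phosphatase used as a marker of osteoclasts and also made by macrophages, had log2 ratios of 1.91, 1.91 and 1.77 in ApoE KO and of 0.00, -0.16 and 0.21 in WT arrays, 3.59-fold higher (1.85 ± 0.109, adjusted p = 0.00141). Lgmn, the asparaginyl endopeptidase that also activates cathepsins, had 1.47, 1.39 and 1.37 in ApoE KO and 0.01, 0.00 and -0.06 in WT arrays, 2.68-fold higher (1.42 ± 0.036, adjusted p = 0.000376). Acp2, the lysosomal acid phosphatase of most cells, rose by 0.49 ± 0.038. Tpp1, a tripeptidyl peptidase, had 0.04, 0.10 and 0.03 in ApoE KO and -0.02, 0.00 and -0.01 in WT arrays, and its log2 fold change of 0.07 ± 0.023 did not pass (adjusted p = 0.155) although the groups did not overlap.

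**Figure D3:**
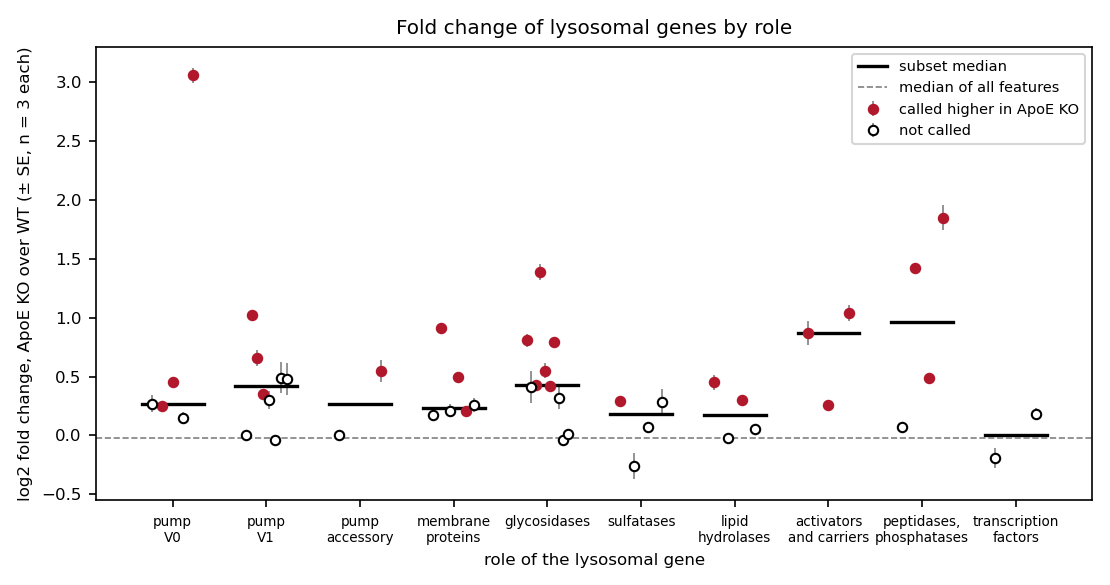
Log2 fold change, ApoE KO over WT, with its SE (n = 3 each) for each of the 48 lysosomal genes, arranged by role. Filled points were called higher, open points were not called, black bars are the median of each role and the dashed line is the median of all features. Role medians run from 0.00 for transcription factors to 0.96 for peptidases and phosphatases.

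By role, the medians thus ordered as 0.96 for peptidases and phosphatases, 0.87 for activators and carriers, 0.43 for glycosidases, 0.42 for V1, 0.27 for V0 and for the accessory proteins, 0.23 for membrane proteins, 0.18 for sulfatases and 0.17 for lipid hydrolases. Within roles, the genes ran from 0.15 to 3.06 in V0, from -0.04 to 1.39 among glycosidases, from 0.17 to 0.91 among membrane proteins and from -0.02 to 0.45 among lipid hydrolases. Among members with a level of at least 0.5, the order of the medians changed. They were 1.04 for activators and carriers (1 gene), 0.96 for peptidases and phosphatases, 0.55 for the accessory proteins (1 gene) and 0.49 for glycosidases. V1 was at 0.42, V0 at 0.36, lipid hydrolases at 0.25, membrane proteins at 0.21 and sulfatases at -0.09. The differences between roles were not tested, since roles of 2 to 10 genes are no replicates.

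Of the 2 transcription factors 0 were called in limma, and 1 was higher and 0 lower at an unadjusted p under 0.05. Mitf, a factor of the same family that is also active in macrophages and osteoclasts, was at 0.18 ± 0.049 with non-overlapping groups (adjusted p = 0.0852). The kept probe of Tfeb had log2 ratios of -0.23, -0.04 and -0.18 in ApoE KO and of -0.05, -0.01 and 0.18 in WT arrays, with overlapping groups and a log2 fold change of -0.19 ± 0.086 (adjusted p = 0.254). Its other probe had 0.12, 0.09 and 0.09 in ApoE KO and -0.01, -0.01 and -0.06 in WT arrays and was called higher by 0.13 ± 0.019 (adjusted p = 0.0179) in a fit with every probe as its own feature, where 14.1% of the probes were called. The direction for Tfeb therefore depends on the probe. Of the 2 relatives outside the list, Tfec, a form restricted largely to myeloid cells, rose by 1.07 ± 0.058 (probe level 0.185), and Tfe3 was at 0.16 and did not pass.

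**Figure D4:**
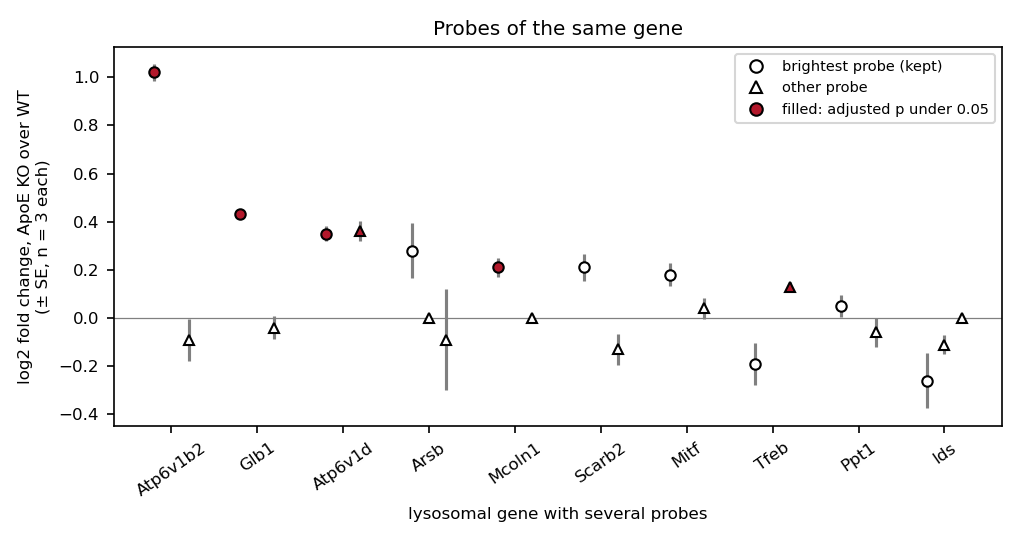
Log2 fold change, ApoE KO over WT, with its SE (n = 3 each) for every probe of the 10 lysosomal genes with more than 1 probe. Circles are the brightest probe of a gene and triangles its other probes, and filled symbols have an adjusted p under 0.05. The probes of Atp6v1b2 lie at 1.02 and -0.09, those of Tfeb at -0.19 and 0.13, and those of Atp6v1d at 0.35 and 0.36.

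Probes of the same gene disagreed for several members. Glb1 was at 0.43 on its brightest probe and at -0.04 on the other, whose level was 3.81 and hence well above the rounding. For Atp6v1b2 the values were 1.02 and -0.09 at levels of 9.44 and 1.54. In both cases the accession of the brighter probe matched the gene in the RefSeq table and that of the other probe had no match there. The kept probes of Atp6v0d2, Acp5 and Npc2, among others, had no match either. For Mitf and Arsb only a dimmer probe that was not kept had a match. A missing match therefore does not tell which probe is right. Scarb2 (0.21 and -0.13), Mcoln1 (0.21 and 0.00) and Ppt1 (0.05 and -0.06) differed between a brighter probe and one with a level of at most 0.0561. Mitf (0.18 and 0.04), Arsb (-0.09 to 0.28) and Ids (-0.26 to 0.00) had no called probe. Averaging the probes of a gene brought Atp6v1b2 to 0.46, Glb1 to 0.20 and Mcoln1 to 0.11.

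Of 44 lysosomal genes outside the list 42 were measured, and 14 were higher and 6 lower in the ApoE KO aortas, with a median log2 fold change of 0.14. Among 16 acid hydrolases 7 rose and 1 fell. The lysosomal phospholipase Pla2g15 rose by 0.59 ± 0.031, while the nuclease Dnase2a fell by 0.18 on the log2 scale, a call that ended without any 1 of the 6 arrays (0.0505 to 0.141). Among 14 membrane and trafficking genes 4 rose and 3 fell. Among those that rose, Laptm5, a lysosomal protein of blood cells, was higher by 1.09, the tetraspanin Cd63 by 0.46 and the sialic acid exporter Slc17a5 by 0.38, the last with a call that ended without any of 5 arrays (highest adjusted p 0.112). Sort1, a sorting receptor for lysosomal proteins, had a log2 fold change of -0.40, Laptm4a of -0.20 (-0.44 after quantile normalization, not called, and not called without any of 4 arrays) and Gnptg, a subunit of the enzyme that makes the mannose 6-phosphate tag, of -0.20, less than 1 rounding step (probe level 0.0645).

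Among the lists of cell type markers, those of macrophages and smooth muscle differed between the groups for most of their genes. Of 15 macrophage markers, 12 were higher and 0 lower in the ApoE KO aortas (13 higher and 1 lower at an unadjusted p under 0.05), with a median log2 fold change of 1.42. Their summed brightness was 193 to 239 in the ApoE KO arrays and 52.4 to 67.4 in the WT arrays. This sum rests largely on C1qa, whose bright probe (level 62.3) differed by 10300 rounding steps, followed by Mpeg1 with 2630. Cd68, Itgam and Mertk, at 0.15, -0.29 and 0.06, were the 3 that did not pass. Of 8 osteoclast markers, Ctsk (1.19) and Ocstamp (0.72, at a level of 0.0563 and 3.21 rounding steps) were higher, 0 were lower, and Mmp9 was at 0 on all 6 arrays. At an unadjusted p under 0.05, 3 osteoclast markers were higher and 1 was lower, namely Itgb3 at -0.21 with groups that did not overlap (adjusted p = 0.0696). The Ocstamp call ended without any of 5 arrays (highest adjusted p 0.0981) and after quantile normalization (0.28, adjusted p = 0.62). The summed brightness of the osteoclast list was 5.17 to 5.51 in ApoE KO and 3.56 to 3.76 in WT arrays. Of 8 smooth muscle markers, 7 were lower, with a median of -0.65 and a summed brightness of 388 to 443 in ApoE KO and 645 to 692 in WT arrays. The part of these cells in the rise of the lysosomal genes was not tested.

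Among markers of other tissues, fibroblast genes were higher in 3 of 6 cases, endothelial genes in 1 of 6 and adipocyte genes lower in 1 of 6. At an unadjusted p under 0.05, 5 fibroblast and 3 endothelial genes were higher and 1 adipocyte gene was lower. The endothelial call, Vwf at a level of 0.161, ended without any of 3 arrays (highest adjusted p 0.0649) and after quantile normalization (adjusted p = 0.62). The adipocyte call, Lep at -0.14, was less than 1 rounding step (probe level 0.0945). Heart muscle markers, 6 in number, and lymphocyte markers, 7 in number, gave 0 calls in limma, and at an unadjusted p under 0.05 there were 0 and 1. The median log2 ratio of the heart markers varied within groups, at -0.58, 0.41 and 0.71 in ApoE KO replicates 1 to 3 and at -0.04, -0.79 and 0.04 in WT replicates 1 to 3. Apoe, the targeted gene, had a log2 fold change of -1.21 ± 0.128, and the sources used here do not say whether its probe lies in the deleted part. WT replicate 3 was at or below -0.2 for 8 members, 4 of them among the 33 brighter members, and for 9.23% of the brighter features. WT replicates 1 and 2 were so for 0 members each and for 0.37% and 2.87% of the brighter features.

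When only the 9034 features at or above a level of 0.5 were fitted, 25 of 33 members were higher and 0 lower, where 19.0% of the features were called higher and 24.5% lower. Of these 25, 18 had been called before and 7 were added, namely Atp6v0a1, Atp6v1g1, Lamp1, Scarb2, Cln3, Manba and Mitf. Over all features, 2358 were higher and 2804 lower, and 3205 and 1773 when each array was centred on the median of its brighter features, which called 34 members higher. Quantile normalization between arrays, which forces the wider ApoE KO and narrower WT ratios to a common distribution, called 15 members. It set Atp6v0d2 at 1.91, Acp5 at 1.15, Lgmn at 0.89, Gusb at 0.88, Npc2 at 0.68 and Hexa at 0.47, all still called. It ended the calls of Atp6v0b, Atp6v1d, Atp6ap2, Npc1, Mcoln1, Naglu, Asah1, Lipa, Gm2a and Acp2.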

How the data were processed

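Transcripts of 6 aortas were measured on Agilent arrays with 2 colours. Per the labels' protocols, 100 ng of RNA was amplified in repeated rounds. The submitters' processing notes name Agilent Feature Extraction, version 8.5.1.1, and the sources used here name no later step. The deposited values are log10 ratios of Cy5 over Cy3. The deposited second table gives intensity in arbitrary units, of which 12 columns of values were not used, since 3 arrays name no group or the authors' p-values were not needed. For 100.0% of 39485 probes the WT ratios of both tables were equal within 0.002, which settled the scale and direction of the WT values. The same direction was assumed for ApoE KO, where Apoe itself was lower. The median log2 ratio was 0 on each array, and whether ratios were centred is unknown.

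Log10 ratios were converted to log2, 194 probes lacking a value on any array were dropped, and the brightest probe stood for each symbol. A level is the mean reference intensity scaled by the midpoint between 1 and the ratio averaged over the 6 arrays. The test was limma's moderated comparison (lmFit, eBayes, version 3.58.1, R version 4.3.3) over 35022 features (adjusted p under 0.05, two-sided), and the fit was tested on simulated data. The simulation gave both groups the same noise, taken from the WT arrays, and placed changes only in features with a level of at least 0.5. It therefore cannot show how well changes of dimmer members are recovered. The design's fit had no block. Members and lists were chosen with earlier results of these data known. Every member is named. Values per array are given for called members with a log2 fold change of at least 0.5, for the lowest member of each role and, besides this rule, for Npc1, Lipa and the probes of Tfeb. Of the other lysosomal genes, those with the lowest p or behind a small count are named, except some that are not reported here. Alternatives were other scalings, filters, probe rules, variance models, a replicate block, array weights and leaving out each array. Cy5 source names mention db/+ mice at 9 weeks in both groups, against the age labels, and headings of the unassigned arrays mention 24 weeks of diet and a vehicle, so age, diet length and vehicle are not settled.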

Additional observations from a re-analysis of the deposited data

How the results depend on the processing

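In the fit over all features, 25 members were called higher and 0 lower, among 5162 calls in all. Members called higher numbered 15 after quantile normalization, 16 with the replicate block and 13 with a log2 fold change of at least 0.5 required as well, and the calls over all features numbered 1651, 2582 and 1287 in the same order. The replicate block ended the calls of Atp6v0b, Atp6v1c1, Atp6v1d, Atp6ap2, Mcoln1, Naglu, Galns, Asah1, Lipa and Gm2a, and it added that of Atp6v1e1. With 1 array left out in turn, 19 to 26 members were higher, 0 to 1 lower, and 3522 to 4902 features were called in all. The member called lower was Ids, without WT replicate 3, and it was also the 1 member called lower with array weights and when probes of a gene were averaged. Whether the replicate numbers pair the arrays is not settled. The deviations of same-numbered arrays from their group means correlated at 0.0776, -0.469 and -0.145 over the brighter features. Arrays of different number correlated at -0.426 to 0.614, the highest for ApoE KO replicate 2 with WT replicate 3. Deviations of 3 arrays sum to 0 within a group, so these correlations cannot decide about pairing. Under the other settings run, 25 to 34 members were higher, among them the 2 settings added after seeing the data, which left out features without variation (30) or treated each probe as a feature (26 members with a probe called). Of the 25 members, 13 stayed called in each of up to 15 alternatives in which they were tested and 12 lost the call in at least 1, and no member turned its sign with a call. The causes were not tested. Rounding to 0.01 limits the 15 members with a level under 0.5, and precision is limited by having 6 arrays.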
